A study of Mus musculus with 48 samples.

Results

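The ciliated airway cell program was described with 39 genes whose products control, build or mark motile cilia, the beating projections of the cells that move mucus out of the airways. The genes were found by symbol in a table of 47561 genes, in which all 39 were listed. RNA from whole lung had been sequenced from 48 adult mice, 3 in each of 16 groups formed by strain (C3H/hen, here C3H, or C57Bl/6, here C57B), sex, injection and air. All mice had received 1 intraperitoneal injection, either of saline or of aurothioglucose (ATG, an organic gold compound known to block thioredoxin reductase) at 25 mg/kg, and had then spent 96 h in room air or in hyperoxia of at least 95% oxygen. The series description gives ATG to every mouse and the C57Bl/6 substrain is given differently by its sources, so the injection groups rested on the sample labels and no substrain is given here. Sex rested on the labels as well, because genes of the X and Y chromosomes were listed at 0 in every mouse. Each mouse was named by strain, sex and number (C57BM 19 is a male and C3HF 27 a female), and every number belonged to a different mouse.

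A motile cilium has a ring of microtubule doublets around a central pair. Outer and inner dynein arms on the doublets are the motors, radial spokes and the central pair time their strokes, and a nexin link holds neighbouring doublets together. Assembly factors help build the dynein arms in the cytoplasm before the arms enter the cilium. Foxj1 is the transcription factor that switches on this set of genes, and Mcidas acts earlier, in cells that are about to make many cilia. In the airway, ciliated cells stand between secretory club cells and share their progenitors.

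Levels were given as FPKM, a count of fragments divided by transcript length and by library size, which allows genes to be compared per length. The depth of each library was not known, because FPKM does not keep it. The sum of FPKM over all genes lay between 510933 and 748290 per mouse, and replicate mice correlated at 0.933 to 0.979 on the log scale. Scgb1a1, the main secreted protein of club cells, made up 10.4% to 30.2% of that sum in room air and 1.20% to 7.17% in hyperoxia, so the share left for every other gene moved with the air. C3HM 1, C3HM 3 and C3HM 4 carried a ribosomal RNA gene, Rn18s-rs5, at 20766 to 25895 FPKM, above the 11999 of the next mouse. C3HM 1 and C3HM 3 were saline mice in room air, and the counts and calls that changed without them are given beside the results. Leaving both out kept 1 mouse in their group, the C3H saline males in room air. The fits without them rest on that mouse for this group, with no spread within it. Their calls are given as a description only.

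Within the lung the members spanned a wide range of levels. In the 12 saline mice kept in room air, Tppp3, a tubulin-binding protein abundant in ciliated cells, had the highest mean at 567 FPKM. Sec14l3, a lipid-binding protein, followed at 425 FPKM, and then Dynlrb2, a dynein light chain, at 76.0 FPKM. Foxj1 came next at 34.4 FPKM, ahead of Rsph1, a radial spoke head protein, at 25.4 FPKM. The long dynein heavy chains lay much lower: over all 48 mice, Dnah9 of the outer arm averaged 1.71 FPKM and Dnah7a of the inner arm 1.81 FPKM. Mcidas averaged 0.280 FPKM in the baseline mice and Spag6, listed under the name of a central pair protein, 0.0668 FPKM. The related row Spag6l, which is not a member and was looked at after its values were seen, had a median of 9.09 FPKM in the 6 C57B saline mice in room air. Mcidas, Dnah1, Dnah2 and Spag6 did not reach 1 FPKM in at least 3 of the saline mice and were left out of the tests. Of the other 35 members, 32 reached that level in both airs and 3 (Dnah10, Dnah12 and Hydin) in room air alone, so that these 3 entered the tests through the air in which they were higher.

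**Figure D1:**
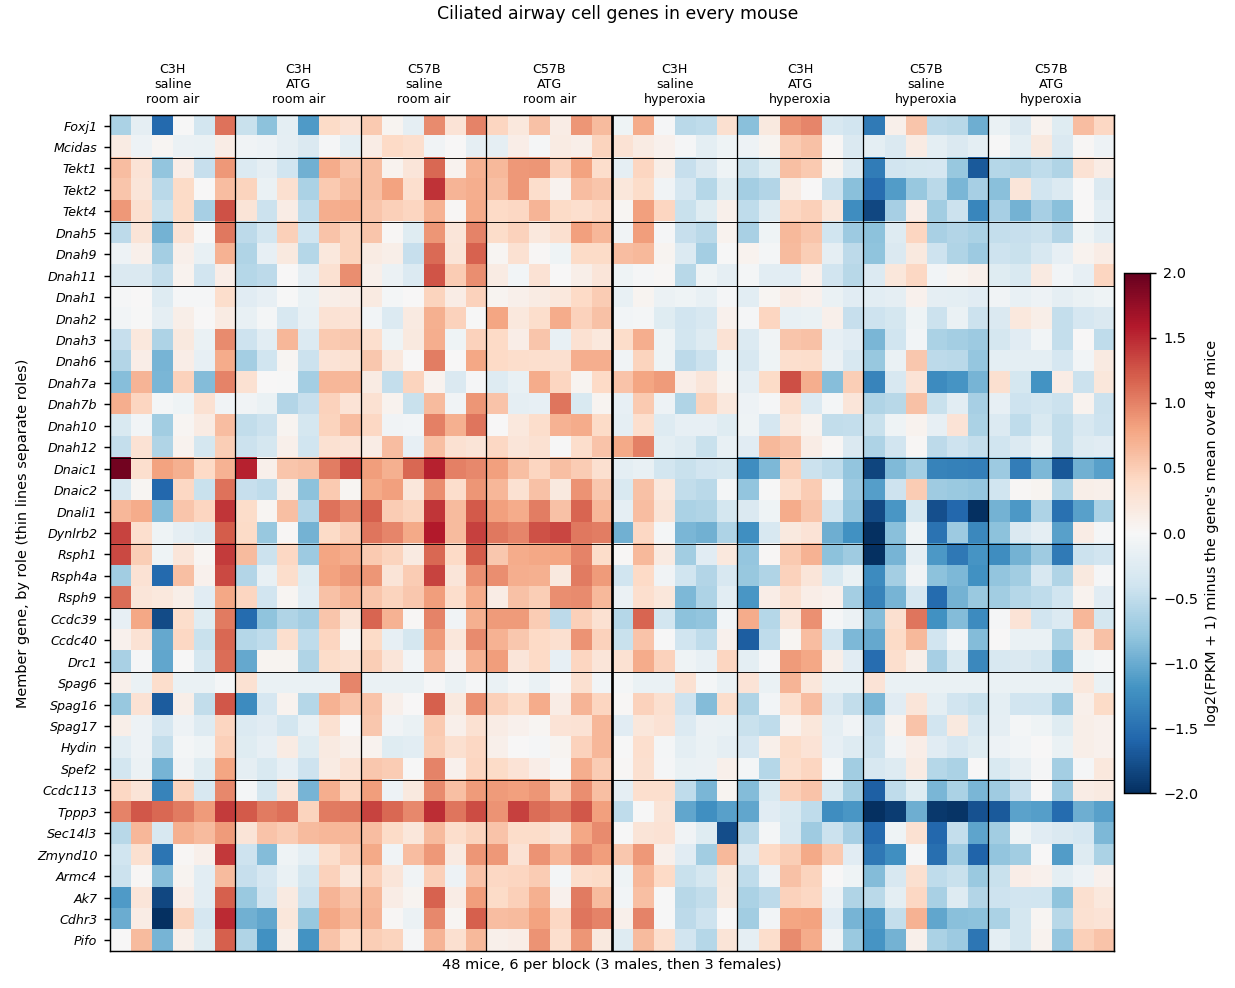
Each row is a member gene, grouped by role, and each column 1 of 48 mice. Color gives log2(FPKM + 1) minus the gene's mean over all mice, with values beyond 2 in either direction drawn at the end of the scale. The palest columns of room air lie among the C3H mice, and the deepest blue block is that of the 6 C57B saline mice in hyperoxia.

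Members rose and fell together from mouse to mouse within groups. After the 16 group means were removed, the correlation of a member with the mean of the other members over 48 mice had a median of 0.854 over the 36 members that passed the filter in all mice. The same correlation had a median of 0.05 over 16994 genes. These values share the library and its scaling, and are given as a description. Because members moved together, counts of signs and of unadjusted p among them are not independent, and are a description as well. Foxj1, the switch of the program, had the highest correlation among the members, 0.964. Sec14l3 (0.297), Dnah2 (0.305), Dnah7b (0.369) and Dnaic1 (0.456) had the lowest. Dnah7a and Dnah7b hold near-identical sequence: 55.2% of the 30-base words of Dnah7a and 40.8% of those of Dnah7b occur in another gene, so the levels of this pair are uncertain. The same share was 17.0% for Tekt2, 15.4% for Ccdc39 and 14.5% for Spag17, in each of them mostly with a gene on the opposite strand.

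The members also varied more within groups than other genes. Their SD within groups had a median of 0.472 on the log2 scale, against 0.264 over all 16994 genes. The members also lay lower, with a median level of 2.28 against 2.97 in log2(FPKM + 1), and the SD was not matched for level. Some single mice were the lowest or highest of their group in nearly all members. C57BM 19 was the lowest of the 3 mice of its group in 36 of 36 members, where it was lowest in 58.2% of all genes. C57BM 21, of the same group, was the highest in 35 of 36 members and in 41.4% of all genes. C3HF 27 was the highest of its group (saline, room air) in 34 members and in 39.9% of all genes. C3HF 28 was the lowest of its group (ATG, room air) in 36 members and in 41.7% of all genes, and C3HM 3 the lowest of its group (saline, room air) in 33 members and in 30.5% of all genes. A mean over the members was formed for each mouse from values centred on each gene's mean. It ran from -0.77 to 0.92 in the 6 C3H saline mice in room air, with a median of 0.11, and from 0.14 to 0.95 in the C57B saline mice in room air, with a median of 0.43. In hyperoxia it ran from -0.44 to 0.52 in C3H, with a median of -0.06, and from -1.13 to 0.12 in C57B, with a median of -0.71. Hyperoxia and room air therefore overlapped fully in C3H and did not overlap in C57B.

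**Figure D2:**
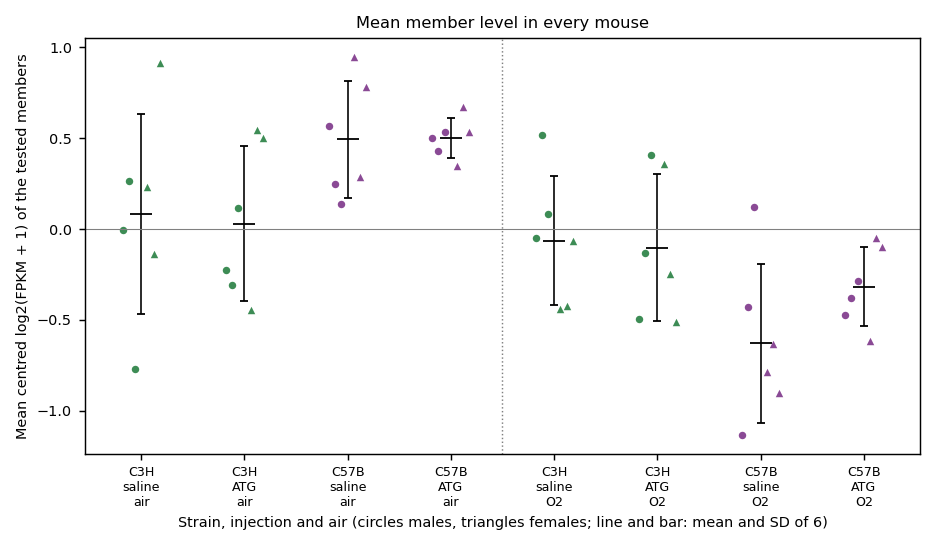
The mean over the members of centred log2(FPKM + 1) is shown for each mouse by strain, injection and air, with the mean and SD of 6 mice. In room air the C57B saline mice averaged 0.49 ± 0.32 and in hyperoxia -0.63 ± 0.44, whereas the C3H saline mice averaged 0.08 ± 0.55 and -0.06 ± 0.36.

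To show what the genes share in sequence, the 300 bases around the RefSeq transcription start (250 before it and 50 after it, build GRCm38.p6) were searched on both strands for short strings. Windows were available for 33 of 39 members. The half-site of RFX factors, partners of Foxj1 in cilium gene control, was searched as GTTGCC and as GTTACC and, in a related form, as TAGCAAC. The string GTTGCC was present in 18 of 33 members (54.5%) and in 14.1% of 27025 genes. GTTACC was present in 9 members (27.3%) and 8.16% of genes, and TAGCAAC in 13 members (39.4%) and 4.28% of genes. CCTAGCAAC, a longer string that contains TAGCAAC, was present in 6 members (18.2%) and 0.944% of genes. At least 1 of the 3 strings stood in 25 members (75.8%), against 23.7% of genes. The forkhead string GTAAACA was present in 1 member, Ak7 (3.03%), and in 4.05% of genes. Such a match is a run of letters and not a shown site of binding. To show where such strings lay, the 150 bases before the start are printed for 4 members described below, Dnaic1 and Dynlrb2 of the dynein arms, Tekt2 of the doublets and Drc1 of the nexin link. They lie at chr4:41569644-41569793 (plus strand), chr8:116504865-116505014 (plus strand), chr4:126325689-126325838 (minus strand, the furthest upstream of 3 listed starts) and chr5:30281243-30281392 (plus strand), in this order. Each is written 5′ to 3′ on the strand of its gene, and capitals mark GTTGCC or GTTACC or TAGCAAC on either strand.
Dnaic1: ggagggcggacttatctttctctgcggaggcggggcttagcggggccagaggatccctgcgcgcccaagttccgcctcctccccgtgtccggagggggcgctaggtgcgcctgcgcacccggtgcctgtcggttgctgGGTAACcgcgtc
Dynlrb2: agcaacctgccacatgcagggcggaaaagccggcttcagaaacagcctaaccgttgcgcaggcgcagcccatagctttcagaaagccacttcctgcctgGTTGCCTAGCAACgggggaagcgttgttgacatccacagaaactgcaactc
Tekt2: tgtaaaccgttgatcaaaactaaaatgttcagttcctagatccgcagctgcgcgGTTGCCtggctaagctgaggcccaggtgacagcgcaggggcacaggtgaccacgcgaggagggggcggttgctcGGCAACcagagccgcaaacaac
Drc1: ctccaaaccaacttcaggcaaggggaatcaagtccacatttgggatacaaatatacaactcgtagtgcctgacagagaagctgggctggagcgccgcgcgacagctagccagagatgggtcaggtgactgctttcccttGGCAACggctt
Within these 150 bases Dynlrb2 carried GTTGCC and TAGCAAC side by side, Tekt2 carried GTTGCC on both strands, and Dnaic1 and Drc1 carried 1 string each. Drc1 also held TAGCAAC elsewhere in the 300 bases searched.

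The first comparison asked whether the program differed between strains and sexes before any oxygen or ATG, in the 12 saline mice in room air. Foxj1 ran from 9.09 FPKM through a median of 23.8 to 62.3 in the 6 C3H mice and from 25.3 through 38.5 to 58.6 in the 6 C57B mice. The lowest C3H mice lay below all C57B mice, but the groups overlapped. Mcidas ran from 0.115 to 0.373 FPKM in C3H (median 0.202) and from 0.0773 to 0.611 in C57B (median 0.293). The fit was made with limma on log2(FPKM + 1) and p was adjusted over all genes tested. Dnah11, an outer arm heavy chain, was the 1 member of 35 that was lower in C3H than in C57B, with a difference of -0.60 on the log2 scale (SE 0.17, adjusted p = 0.037), and 7.87% of all genes tested were lower. Its FPKM ran from 0.488 to 1.28 in C3H (median 0.70) and from 0.709 to 3.99 in C57B (median 1.59). It reached 1 FPKM in 6 of these 12 mice, fewer than 3 of them C3H. Dnah11 thus entered the test through the strain in which it was higher. No member was higher, against 3.92% of all genes. Dnah10 of the inner arm came next, with a difference of -0.55 (SE 0.17, adjusted p = 0.062). All 35 differences were negative, with a median of -0.40 where all genes had a median of -0.10, and 9 had an unadjusted p under 0.05. As members moved together within groups, these tallies are a description only. Foxj1 itself differed by -0.71 (SE 0.29, adjusted p = 0.136). Without C3HM 1 and C3HM 3 no member passed, and the count also fell to 0 without any 1 of C3HM 1, C3HM 3, C57BM 13, C57BM 14, C57BM 15, C3HF 25, C3HF 26, C57BF 37 and C57BF 39. It rose to 8 without C3HM 2 and to 5 without C3HF 27.

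Males and females differed in no member by the same limma fit, in either direction, against 0.669% of all genes called. Of the 35 differences, 32 were negative (lower in males), with a median of -0.43 against -0.12 for all genes, and 11 had an unadjusted p under 0.05. These members were not independent of one another, so the tallies are a description only. Dnah10 was closest to the threshold, at -0.73 (SE 0.17, adjusted p = 0.0769). The count rose to 10 without C3HM 2. The strain difference did not differ detectably between the sexes in any member, with 0 at an unadjusted p under 0.05 and 0% of all genes called (smallest adjusted p = 0.319, Dnah11). The count was 1 without C3HM 2.

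The second comparison asked how 96 h of hyperoxia moved the program in saline mice. Over both strains, 20 of 35 members fell and none rose, against 28.3% of all genes falling and 31.8% rising. Dnah10, 1 of the 20, entered the tests only through room air, the air in which it was higher. All 35 changes were negative, with a median of -0.41 against 0.01 for all genes, though members moved together and their signs are not independent. The largest falls were those of Tppp3 (-2.37), Dnaic1 (-1.70), Dynlrb2 (-1.53), Dnali1 (-1.51) and Rsph1 (-1.17). In 2 members all hyperoxia mice lay below all room air mice, against 2.13% of all genes. Foxj1 changed by -0.32 (SE 0.22, adjusted p = 0.224) and did not pass. In whole lung, fewer ciliated cells and less RNA per ciliated cell cannot be told apart. Without C3HM 1 and C3HM 3 the count of members that fell was 24.

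The strains were then taken apart. In C57B, 31 of 35 members fell and none rose, against 30% of all genes falling and 25.5% rising. Dnah10, Dnah12 and Hydin, which entered the tests only through room air, the air in which they were higher, were among the 31. The median change was -0.91, where all genes had -0.06. Dnah7b, Dnah11, Ccdc40 and Spag17 did not pass. In C3H, 4 of 35 fell and none rose, against 12.5% of all genes falling and 25.3% rising. The median change there was -0.05, where all genes had 0.10, with 16 positive and 19 negative changes. The 4 members that fell in C3H (Dnaic1, Dynlrb2, Rsph9 and Tppp3) were all among the 31 of C57B, 100% of one list and 12.9% of the other. In C57B all hyperoxia mice lay below all room air mice in 10 members, against 16.3% of all genes, and in C3H in 2 members, against 4.13%. Without the filter on low levels, the counts were 30 and 2 of 39 members. In C3H the count was 3 without C3HM 1 and C3HM 3 (Tppp3, Dnaic1 and Dnali1), where Dynlrb2 had -0.81 (adjusted p = 0.146) and Rsph9 -0.45 (adjusted p = 0.189). It was 2 without any 1 of C3HM 1, C3HM 7, C3HF 27, C3HF 31 and C3HF 32, with the calls of Dynlrb2 and Rsph9 lost each time.

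**Figure D3:**
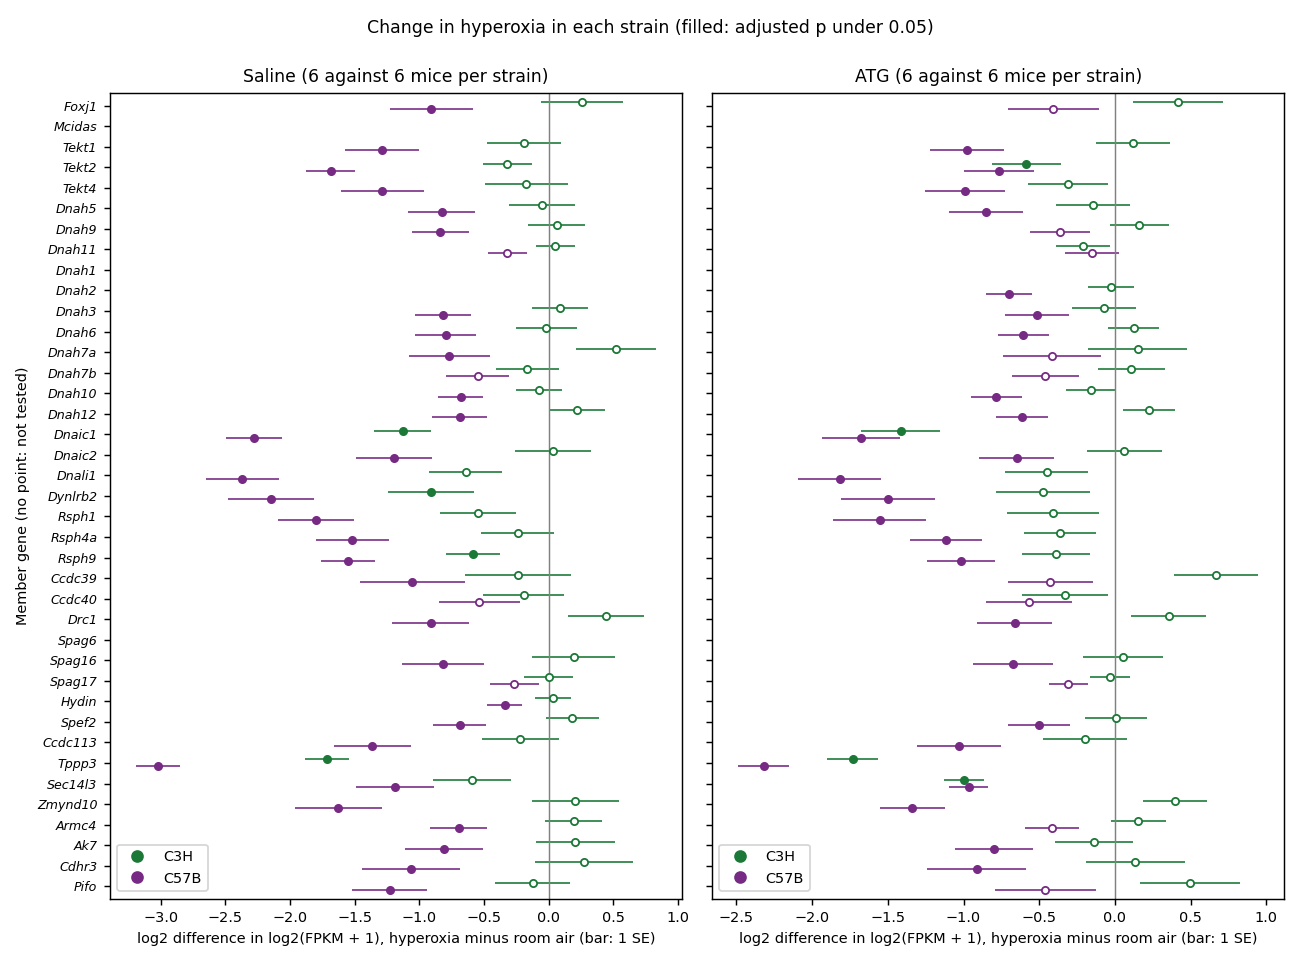
Points give the fitted change in hyperoxia (log2 difference of FPKM + 1, hyperoxia minus room air) for each member in C3H and C57B, with 1 SE, in saline mice and in ATG mice, and filled points have an adjusted p under 0.05. The 2 panels have different scales. In both panels the C57B points lie mostly to the left of the C3H points, with 31 filled for C57B and 4 for C3H in saline mice and 25 and 4 in ATG mice.

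Among the regulators, Foxj1 fell in C57B. There it went from 25.3, 38.5 and 58.6 FPKM (lowest, median and highest of 6) in room air to 10.2, 19.5 and 42.7 FPKM in hyperoxia. The ranges overlapped, and the change of -0.91 (SE 0.32, adjusted p = 0.0205) passed, though not without C57BM 13 or without C57BM 19. In C3H it went from 9.09, 23.8 and 62.3 FPKM to 19.5, 27.6 and 48.6 FPKM, with full overlap. That change was 0.26 (SE 0.32, adjusted p = 0.559), with a 95% interval from -0.40 to 0.92. The change was -0.05 without C3HM 1 and C3HM 3, which left 1 male among the C3H saline mice in room air. Mcidas had a median of 0.0682 FPKM in C57B hyperoxia (0 to 0.377) and 0.253 FPKM in C3H hyperoxia (0.0675 to 0.494). Fitted without the filter, Mcidas changed by -0.27 in C57B (limma adjusted p = 0.00948) and by 0.04 in C3H (adjusted p = 0.814), at levels far under 1 FPKM.

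Intermediate and light chains of the dynein arms had the strongest falls of any role by median. All 4 of them fell in C57B, with a median of -2.21, and 2 of 4 fell in C3H, with a median of -0.77. Of all genes, 30% fell in C57B and 12.5% in C3H. Roles hold few members, so counts of 1 or 2 are no result about a role. Dnaic2 had the smallest fall of the 4 in C57B, -1.20, and in C3H its change was 0.03 and not called. Dnaic1, an intermediate chain of the outer arm, went in C57B from 5.62, 7.04 and 10.8 FPKM to 0.13, 0.595 and 1.52 FPKM. In C3H it went from 4.10, 5.63 and 14.5 FPKM to 1.98, 2.16 and 2.66 FPKM. The airs did not overlap in either strain. The changes were -2.28 (SE 0.22, adjusted p = 4.36e-08) in C57B and -1.13 (SE 0.22, adjusted p = 0.00044) in C3H. Dnali1, a light intermediate chain of the inner arm, went from 8.95, 13.1 and 18.6 FPKM to 0.671, 1.31 and 4.71 FPKM in C57B. In C3H it went from 3.03, 10.2 and 18.7 FPKM to 3.70, 5.07 and 10.2 FPKM, with overlap. It changed by -2.37 (SE 0.28, adjusted p = 7.38e-07) in C57B, and by -0.64 (SE 0.28, adjusted p = 0.0805) in C3H, where it did not pass. Dynlrb2, a light chain, went from a median of 85.6 FPKM (65.3 to 126) to 19.7 FPKM (8.92 to 39.2) in C57B and from 45.8 FPKM (34.8 to 108) to 24.3 FPKM (20.9 to 55.8) in C3H, where the airs overlapped. It changed by -2.15 (SE 0.33) and by -0.91 (SE 0.33, adjusted p = 0.0373), respectively, and the change in C3H did not pass without C3HM 1 and C3HM 3.

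Radial spoke members fell next, with a median of -1.55 over 3 of 3 members that fell in C57B and -0.54 over the same 3 in C3H, of which 1 fell. The shares over all genes were 30% falling in C57B and 12.5% in C3H. Rsph1 went in C57B from 17.4, 21.8 and 36.8 FPKM to 3.02, 6.27 and 13.4 FPKM, with no overlap, a change of -1.80 (SE 0.29, adjusted p = 3.32e-05). In C3H it went from 14.3, 20.1 and 41.8 FPKM to 9.05, 16.5 and 24.4 FPKM, a change of -0.54 (SE 0.29, adjusted p = 0.155). Rsph9, another spoke head protein, went from a median of 16.1 FPKM (14.0 to 19.9) to 5.12 FPKM (3.00 to 8.27) in C57B and from 12.7 FPKM (8.95 to 24.3) to 9.45 FPKM (5.24 to 13.7) in C3H, with changes of -1.55 (SE 0.21) and -0.59 (SE 0.21, adjusted p = 0.0326), the second of which did not pass without C3HM 1 and C3HM 3. Tektins, filament proteins inside the doublets, fell in C57B in 3 of 3 members, with a median of -1.29, and in 0 of 3 in C3H, with a median of -0.19. Tekt1 went in C57B from 7.68, 10.2 and 17.5 FPKM to 1.58, 4.64 and 5.57 FPKM, without overlap, a change of -1.29 (SE 0.29, adjusted p = 0.00075).

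**Figure D4:**
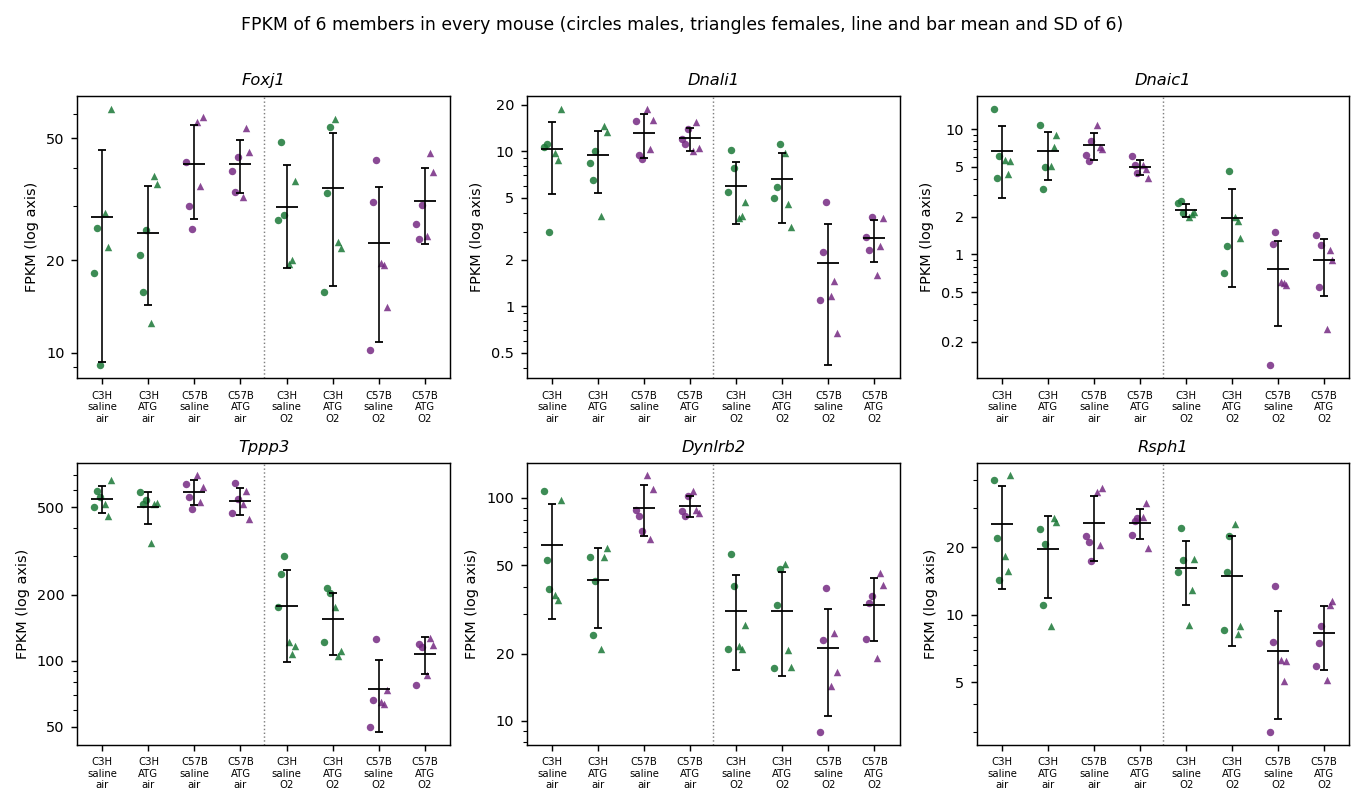
FPKM of Foxj1, Dnali1, Dnaic1, Tppp3, Dynlrb2 and Rsph1 is shown for every mouse on a log axis, with circles for males, triangles for females and the mean and SD of 6. In C57B saline mice the 6 hyperoxia values of Tppp3 (50.2 to 126) lie below all room air values (489 to 698), whereas those of Foxj1 (10.2 to 42.7 against 25.3 to 58.6) overlap.

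Heavy chains, the motor subunits, moved less on this scale. The counts for C57B that follow stand against 30% of all genes falling. Outer arm heavy chains had a median of -0.83 in C57B (2 of 3 fell) and 0.05 in C3H. Inner arm heavy chains had -0.73 in C57B (5 of 6) and 0.04 in C3H. These 5 held Dnah10 and Dnah12, which entered the tests only through room air. Dnah9 went in C57B from a median of 1.98 FPKM (0.88 to 4.81) to 0.814 FPKM (0.479 to 1.96), a change of -0.84, and in C3H from 1.58 FPKM (0.61 to 3.18) to 1.62 FPKM (0.613 to 3.05). Dnah7a went from 1.60 FPKM (0.833 to 2.48) to 0.239 FPKM (0.0247 to 2.10) in C57B, a change of -0.77, and from 1.47 FPKM (0.366 to 4.12) to 2.42 FPKM (1.66 to 3.61) in C3H. Members of the 96-nm ruler and the nexin link had a median of -0.91 in C57B (2 of 3 fell) and -0.19 in C3H. Ccdc40, a ruler protein, was the exception in C57B, at -0.54 (SE 0.31, adjusted p = 0.153), from a median of 10.1 FPKM (6.03 to 16.3) to 6.70 FPKM (3.38 to 13.0). Central pair members had -0.51 in C57B (3 of 4) and 0.11 in C3H. Hydin, 1 of these 3, entered the tests only through room air. Spag16 changed by -0.82 in C57B, from a median of 4.80 FPKM (3.42 to 9.08) to 2.58 FPKM (1.35 to 4.23).

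The 8 remaining members fell in C57B in 8 of 8 cases (median -1.21), against 30% of all genes. In C3H 1 of them fell (median 0.04), near the 12.5% of all genes that fell there. Tppp3 had the largest fall of all members. In C57B it went from 489, 588 and 698 FPKM to 50.2, 65.6 and 126 FPKM, which is 8.12-fold lower (-3.02, SE 0.17, adjusted p = 2.87e-11). In C3H it went from 454, 535 and 664 FPKM to 107, 149 and 299 FPKM, which is 3.28-fold lower (-1.71, SE 0.17, adjusted p = 2.61e-07). The airs did not overlap in either strain. Zmynd10, an assembly factor for dynein arms, went in C57B from 4.58, 8.45 and 9.77 FPKM to 0.925, 1.33 and 4.74 FPKM (-1.63, SE 0.33, adjusted p = 0.00037). In C3H it went from 1.13, 5.10 and 14.5 FPKM to 2.61, 6.40 and 9.63 FPKM, a change of 0.21 (SE 0.33, adjusted p = 0.666). Sec14l3 went from a median of 418 FPKM (368 to 486) to 187 FPKM (105 to 386) in C57B, a change of -1.19 (SE 0.30), and from 491 FPKM (214 to 565) to 305 FPKM (90.5 to 381) in C3H, a change of -0.59 (SE 0.30, adjusted p = 0.134).

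Members with short transcripts had larger changes than those with long ones, but low FPKM shrinks a difference on the log2(FPKM + 1) scale. In C57B the median change was -1.55 in the 15 members with under 3000 bp of exon, -0.94 in the 8 members from there up to 8000 bp and -0.69 in the 12 longer ones. With 0.1 added in place of 1, these medians were -1.72, -1.26 and -1.32. Both longer classes thus changed order with the value added, whereas the short class kept the largest fall under both.

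Whether the change differed between strains was tested as the change in C3H minus that in C57B. Of 35 members, 8 had a more positive change in C3H and none a more negative one, against 8.71% and 2.81% of all genes. They were Zmynd10 (1.83, SE 0.47, adjusted p = 0.0173), Dnali1 (1.73, SE 0.40, adjusted p = 0.0093), Tekt2 (1.36, SE 0.27, adjusted p = 0.00335), Drc1 (1.36, SE 0.42, adjusted p = 0.0407), Tppp3 (1.31, SE 0.24, adjusted p = 0.00209), Rsph4a (1.28, adjusted p = 0.0425), Dnaic1 (1.15, adjusted p = 0.0211) and Rsph9 (0.96, adjusted p = 0.0405). Tekt2 went in C57B from 5.99, 8.04 and 14.1 FPKM to 0.94, 2.11 and 2.81 FPKM, without overlap, and in C3H from 2.83, 5.91 and 7.52 FPKM to 2.73, 3.97 and 6.13 FPKM, with overlap. Drc1, of the nexin link, went down in C57B from a median of 8.36 FPKM (5.98 to 10.8) to 4.22 FPKM (1.52 to 8.12), and in C3H its medians were 5.42 FPKM (2.51 to 14.8) and 8.33 FPKM (5.56 to 11.2). All 35 differences of change were positive, with a median of 1.02 against 0.15 for all genes, and 28 had an unadjusted p under 0.05. The members moved together within groups, so these signs and unadjusted p are a description only. Without C3HM 1 and C3HM 3 the count was 5, with Zmynd10 at 1.41 (adjusted p = 0.0803), Drc1 at 1.08 (adjusted p = 0.159) and Rsph4a at 0.81 (adjusted p = 0.191) no longer past the threshold. With single mice left out the count was 22 without C57BM 21, 21 without C3HM 2 and also without C3HF 27, and 5 without any 1 of 11 other mice (C3HM 3, C3HM 8, C57BM 13, C57BM 19, C3HF 25, C3HF 26, C3HF 32, C3HF 33, C57BF 37, C57BF 39 and C57BF 43). Foxj1 had a difference of 1.17 (SE 0.45, adjusted p = 0.0947) and did not pass.

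The 24 ATG mice are different animals, which gave the same comparison a second time. Hyperoxia lowered 17 of the members in both strains together, against 26% of all genes. In C57B, 25 members fell, against 25.4% of all genes, with a median of -0.70 where all genes had 0.02. Of these 25, 24 were among the 31 of the saline mice (77.4% of the saline list and 96% of the ATG list). The other, Dnah2, passed the filter only with room air mice counted, the air in which it was higher. The airs did not overlap for 17 members, against 13.5% of all genes. The 5 largest falls were again those of Tppp3 (-2.32), Dnali1 (-1.82), Dnaic1 (-1.68), Rsph1 (-1.55) and Dynlrb2 (-1.50). In C3H, 4 members fell, against 17.5% of all genes, namely Tppp3 (-1.73), Dnaic1 (-1.42), Sec14l3 (-0.997) and Tekt2 (-0.58), and 2 of them (Tppp3 and Dnaic1) had fallen in the saline C3H mice. Tppp3 ran from 441 to 646 FPKM in C57B room air (median 531) and from 77.5 to 127 FPKM in hyperoxia (median 117), and in C3H from 342 to 585 FPKM (median 518) and from 105 to 214 FPKM (median 149). Foxj1 had medians of 41.3 FPKM (32.1 to 54.0) and 28.3 FPKM (23.4 to 44.7) in C57B, with a change of -0.41 (SE 0.30, adjusted p = 0.258) that did not pass. Its medians in C3H were 22.9 FPKM (12.5 to 37.8) and 28.0 FPKM (15.7 to 57.7).

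In ATG mice the change differed between strains in 6 members, all more positive in C3H, against 8.27% of all genes more positive and 5.04% more negative. These were Zmynd10 (1.73, adjusted p = 0.00087), Dnali1 (1.37, adjusted p = 0.0233), Tekt1 (1.10, adjusted p = 0.0397), Dnah12 (0.84, adjusted p = 0.0263), Dnah6 (0.73, adjusted p = 0.0465) and Dnah2 (0.67, adjusted p = 0.0403). Dnah2 did not pass the filter in the hyperoxia mice of both injections. It thus entered this fit, and the fit of 48 mice below, only with room air mice counted. Zmynd10 and Dnali1 passed under saline and under ATG alike. Zmynd10 had medians of 9.59 FPKM (6.17 to 10.4) and 2.69 FPKM (1.70 to 4.87) in C57B, and 4.29 FPKM (2.22 to 7.30) and 6.96 FPKM (3.79 to 8.88) in C3H. When leaving out single mice, this count lay between 2 (without C57BM 22) and 10 (without C3HM 10), and was 3 without any 1 of C3HM 4, C3HM 12, C57BM 18, C3HF 34, C3HF 35 and C57BF 46. The call of Dnah6 was lost without any 1 of 17 mice, that of Tekt1 without any 1 of 13 and that of Dnah12 without C3HM 12 or C57BM 22. Over both injections and 48 mice, 30 of 36 members had a more positive change in C3H, against 19.3% of all genes, with a median of 0.85 against 0.10. Zmynd10 (1.78, SE 0.29, adjusted p = 2.05e-05), Dnali1 (1.55, SE 0.29), Rsph1 (1.20), Cdhr3 (1.19) and Drc1 (1.19) differed most, and Foxj1 passed here at 0.99 (SE 0.32, adjusted p = 0.0198). Dnah7b, Dnah11, Ccdc40, Spag17, Hydin and Sec14l3 did not pass. Without C3HM 1 and C3HM 3 the count was 21: Foxj1 had 0.84 (adjusted p = 0.0629) and Cdhr3 0.90 (adjusted p = 0.062), and Dnah3, Dnah5, Dnah7a, Ccdc39, Spag16, Ak7 and Pifo did not pass either. A difference of this difference between saline and ATG was called in no member and in 0.0353% of all genes (smallest adjusted p = 0.39, Tekt2), with 2 members at an unadjusted p under 0.05.

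Within hyperoxia, the levels of the strains were compared directly. In saline mice, 12 members were higher in C3H than in C57B and none was lower, against 16.1% of all genes higher and 11.1% lower. Dnali1 (1.31), Zmynd10 (1.29), Dnah7a (1.23), Tppp3 (1.20) and Rsph1 (1.17) differed most, whereas Foxj1 differed by 0.45 (adjusted p = 0.314). This comparison uses the same hyperoxia mice as the changes above, and the baseline comparison the same room air mice. Over all 48 mice and conditions, C3H was higher in 4 members (Dnah7a, Dnaic1, Tppp3 and Dnali1, by 0.35 to 0.41), against 19.1% of all genes, and lower in 1 (Dnah11, -0.29, adjusted p = 0.00396), against 22.4%. The 5 calls became 3 without any 1 of C3HM 4, C3HM 9, C57BM 14, C57BM 16, C57BM 17, C3HF 29, C3HF 32, C57BF 38, C57BF 43 and C57BF 47.

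The levels of 6 structural members were also set against that of Foxj1 in each mouse, as the log2 ratio of FPKM, which does not depend on the scaling of the library. The 6 were chosen after their values were seen, 5 of them as the members with the largest falls, so the ratios are given as a description, with no test. In saline mice the mean ratio of Tppp3 to Foxj1 differed by -2.0 in C3H and by -2.10 in C57B (log2, hyperoxia minus room air), and every hyperoxia mouse lay below every room air mouse of its strain. The difference for Dnali1 was -1.0 in C3H and -2.10 in C57B, again with 6 of 6 mice below all room air mice in each strain. Dnaic1 had -1.70 in C3H, where 3 of 6 mice lay below all room air mice, and -2.65 in C57B, where 6 of 6 did. For Dynlrb2 the ratio differed by -1.21 and -1.27, and for Rsph1 by -0.85 and -1.02, in C3H and C57B respectively. Sec14l3, a lipid-binding protein, had -0.87 in C3H and -0.25 in C57B, and its ratios overlapped between the airs. The ATG mice gave, in C3H and C57B, -2.17 and -1.91 for Tppp3, -2.36 and -2.24 for Dnaic1, -0.95 and -1.76 for Dnali1, and -1.43 and -0.55 for Sec14l3. Sec14l3 thus had 5 of 6 hyperoxia mice below all room air mice in the C3H mice given ATG, against 2 of 6 in those given saline.

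**Figure D5:**
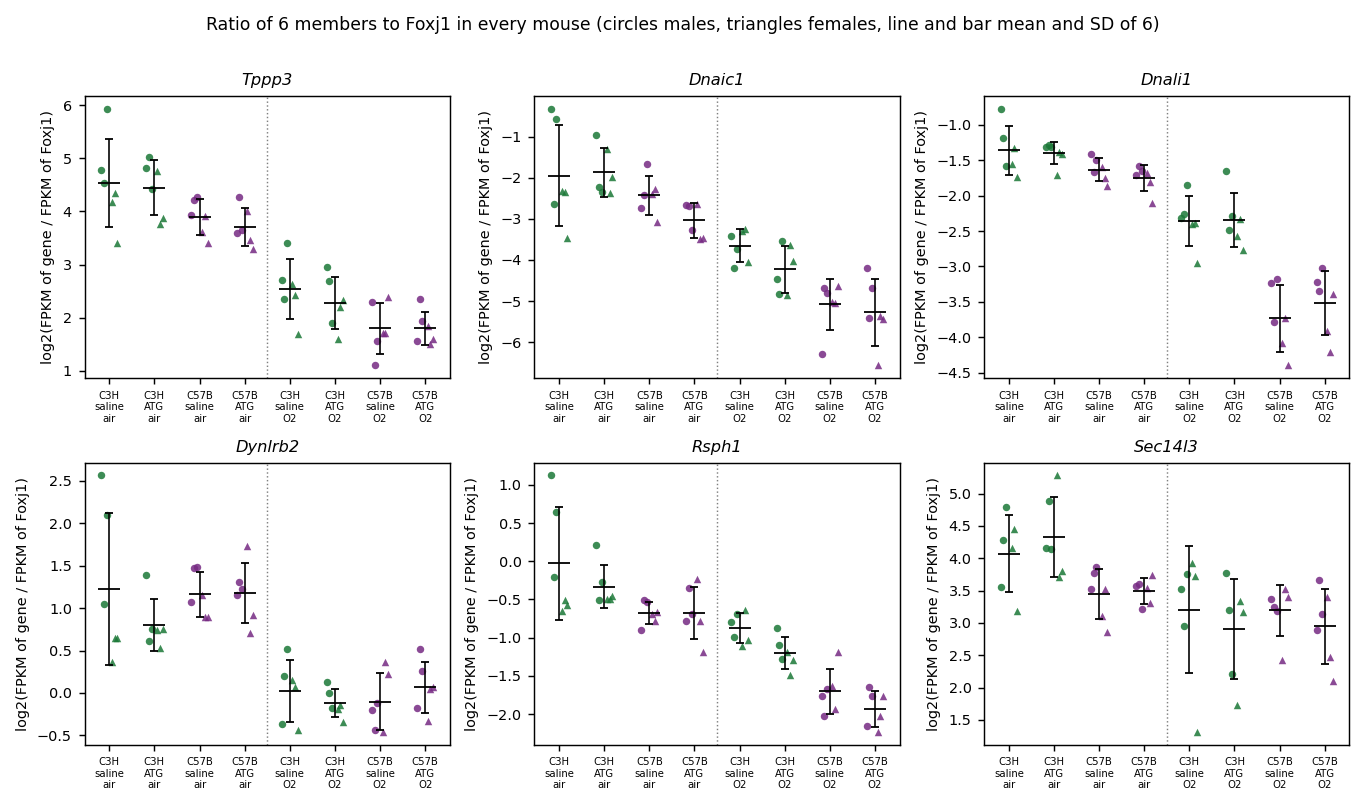
The log2 ratio of FPKM of 6 members to FPKM of Foxj1 is shown for every mouse, with circles for males, triangles for females and the mean and SD of 6. For Tppp3 and Dnali1 all 6 hyperoxia mice lie below all 6 room air mice in each strain of the saline mice, whereas the Sec14l3 values overlap.

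Other genes of ciliogenesis were counted from lists outside the 39 members, against the shares of all genes given above (in C57B 30% falling and 25.5% rising, in C3H 12.5% and 25.3%). Of 9 tested regulators of multiciliated cells, 3 fell in C57B in hyperoxia (Myb -1.44, Ccdc78 -1.19 and Rfx3 -0.63) and 2 rose (E2f4 0.38 and E2f5 0.33). Myb drives early steps of multiciliated cell formation, Ccdc78 acts in the amplification of centrioles, and E2f4 also serves cell cycle control in many cell types. In C3H 1 regulator rose (E2f4, 0.46) and none fell. Of 24 genes of intraflagellar transport, which carries parts along the cilium, 15 fell in C57B, led by Ift20 (-1.67), Ift80 (-1.61) and Dync2li1 (-1.24), and 1 rose, whereas 3 fell and 2 rose in C3H. Among 20 genes of dynein arm assembly and docking, 14 fell in C57B (Ttc25 -1.53, Nme9 -1.38, Wdr63 -1.27) and 1 rose, and 5 fell and 3 rose in C3H. Of 59 other genes of the axoneme, 40 fell in C57B, led by Ccdc153 (-3.20), Lrrc23 (-2.99) and Spa17 (-2.31), and 2 rose. In C3H 6 of these 59 fell, led by Spa17 (-1.11), Ccdc153 (-1.04) and Ropn1l (-1.0), and 1 rose. The difference between strains was more positive in C3H, over both injections, in 5 of 11 regulators, 14 of 24 transport genes, 9 of 20 assembly genes and 36 of 59 axoneme genes, against 19.3% of all genes.

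Markers of other lung cells were counted in the same mice, against the same shares of all genes (in C57B 30% falling and 25.5% rising, in C3H 12.5% and 25.3%). With lists of 5 to 14 genes, counts such as 1 or 2 of 5 lie near those shares. Of 14 club cell markers tested in C57B, 8 fell and 1 rose, with a median of -1.87, and Scgb1a1 changed by -3.24. In C3H 4 club cell markers fell and 1 rose, with a median of 0.07, and Scgb1a1 changed by -1.86. The summed club cell FPKM went from between 102869 and 172432 to between 8268 and 20319 in C57B and from between 72331 and 235851 to between 30515 and 47849 in C3H, without overlap in either strain. The change in Scgb1a1 was more positive in C3H by 1.37 (limma adjusted p = 0.0211). Over both injections 12 of 14 club cell markers had a more positive change in C3H and 1 a more negative one. Of all genes, 19.3% had a more positive change. Of 10 markers of type 2 alveolar cells, 9 fell and none rose in C57B (Sftpc -2.72), and 5 fell and 1 rose in C3H (Sftpc -1.81). Among 8 markers of type 1 cells 4 fell in each strain (Ager -0.64 in C57B and -0.55 in C3H). Of 8 endothelial markers 6 fell and 1 rose in C57B, and 4 fell and 1 rose in C3H (Pecam1 0.05 and -0.05, not called). Smooth muscle markers rose in 5 of 6 in C57B (Acta2 1.09) and 3 of 6 in C3H, and neutrophil markers in 3 of 5 (S100a8 1.70) and 1 of 5. Of 5 alveolar macrophage markers, 2 rose and 3 fell in C57B (Marco 2.48) and 2 rose and 2 fell in C3H. Heart markers fell in 3 of 5 in C57B (Myh6 -2.65) and 1 of 5 in C3H, and of 5 mesothelial markers 1 rose and 2 fell in C57B and 1 rose in C3H. Basal cell markers had sums of at most 6.40 FPKM in every mouse, and their first marker, Krt5, was too low to be tested. The part of these cell markers in the change of the members was not tested.

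ATG was compared with saline last. In room air the limma fit called no member, against 0.0185% of all genes, and 0 members had an unadjusted p under 0.05. Foxj1 differed by 0.00 with a 95% interval from -0.42 to 0.42. In hyperoxia no member of 34 tested was called, against 5.47% of all genes, and 1 had an unadjusted p under 0.05 (Pifo, 0.47, adjusted p = 0.198). Foxj1 differed there by 0.33, with an interval from -0.16 to 0.81. The effect of ATG did not differ detectably between the airs in any of 36 members, against 2.77% of all genes, and 2 had an unadjusted p under 0.05.

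Finally, the change in hyperoxia was compared between the sexes of the saline mice. No member was called, against 0.0368% of all genes. All 35 differences were positive (a more positive change in males), with a median of 0.82 against 0.14 for all genes, and 22 had an unadjusted p under 0.05. Since members moved together within groups, the signs and unadjusted p are a description only. Dnah9 was closest, at 1.20 (SE 0.31, adjusted p = 0.134), and Foxj1 had 1.26 (SE 0.45, adjusted p = 0.184). Leaving out 1 mouse brought the count to 12 (C57BM 19) or 10 (C3HM 2).

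The 10 genes outside the lists whose levels followed the mean of the members most closely over 48 mice, after group means were removed, were Ubxn10 (r = 0.954), Kif21a (0.946), Fam161a (0.944), Efcab1 (0.935), Clic6 (0.934), Sntn (0.925), BC051019 (0.923), Fam216b (0.922), Ppil6 (0.919) and Drc7 (0.914). Sntn is known as a component of the ciliary tip in airway cells and Drc7 as part of the nexin link.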

How the data were processed

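The authors aligned paired reads of polyA-selected lung RNA to mm10 with GSNAP (release of 2012), used SAMtools, and made the deposited FPKM table with Cufflinks (versions of the last 2 not given in the sources used here). Library kit, strand and instrument are described differently by the labels and the paper. FPKM are scaled to each library's total, so a change in 1 very abundant gene moves all others. Of 47561 genes, 47144 were matched by identifier to GENCODE M21, 20454 were at 0 in every mouse, and 1 was left out for 7 failed estimates.

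Genes with FPKM of at least 1 in 3 or more mice of a comparison were fitted as log2(FPKM + 1) with limma 3.58.1 in R 4.3.3, with a mean for each group of 3 mice, a trended prior and Benjamini-Hochberg adjustment over all genes tested, at 0.05. The value added understates changes of low genes. Comparisons took the mice they concern; hyperoxia in ATG mice, over both injections, and strain within hyperoxia were added after the data were seen. Tables used Python 3.11.15, numpy 2.4.6 and pandas 2.3.3. The fit was also run on simulated data with noise drawn independently for each gene. Members move together within groups, so that run does not bear on their counts.

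Groups came from the labels. P-values set a difference of group means against the spread between mice within groups, moderated by the trended prior over all genes. The members and lists were chosen with earlier results of these data known. By rule, the text names Foxj1 and Mcidas, up to 5 members per comparison in each direction by size of change, the most abundant member of each role, up to 3 genes of each other ciliary list and the first gene of each cell type list, and the 10 genes most like the members. Alternatives were another scaling, no filter, 0.1 in place of 1, all 48 mice in the fit, Scgb1a1 left out of the total, and mice left out. Sequences are from RefSeq.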

Additional observations from a re-analysis of the deposited data

Results flagged for a closer look

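In groups of 6 mice of 1 strain, injection and air, Foxj1 and the mean member level were checked for a mouse far from the others, in 16 checks. Foxj1 in C3HF 27 (62.3 FPKM, C3H saline mice in room air) stood apart, with a gap of 0.635 of the range against a critical value of 0.625, and chance gives about 1 such flag in 20 checks.

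In saline mice 8 members changed differently in the strains (change in C3H minus change in C57B, limma): Zmynd10 by 1.83, Dnali1 by 1.73, Tekt2 by 1.36, Drc1 by 1.36, Tppp3 by 1.31, Rsph4a by 1.28, Dnaic1 by 1.15 and Rsph9 by 0.96. In ATG mice 6 members did: Zmynd10 by 1.73, Dnali1 by 1.37, Tekt1 by 1.10, Dnah12 by 0.84, Dnah6 by 0.73 and Dnah2 by 0.67. Of all genes, 8.71% were more positive in C3H and 2.81% more negative in saline mice, and 8.27% and 5.04% in ATG mice. The call of Drc1 in saline mice was lost without any 1 of 17 mice. In ATG mice that of Dnah6 was lost without any 1 of 17 and that of Tekt1 without any 1 of 13. Dnah2 passed the filter there only with room air mice counted.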

How the results depend on the processing

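No paired analysis was possible because each mouse has its own number. Of 105 counts of members under other settings, 92 stayed within 1.5 times the value given and 13 did not. The 92 include counts of 0 that stayed at 0, such as those of ATG in room air, where a ratio says nothing. For strain at baseline the count of 1 became 0 with median-ratio scaling, 4 with all 48 mice in the fit and 0 without C3HM 1 and C3HM 3. Sex at baseline went from 0 to 1 without Scgb1a1 in the total and 5 with all 48 mice. Hyperoxia in C3H went from 4 to 2 without the filter. The difference in hyperoxia between strains, 8 in saline mice, became 5 without the filter, 4 with median-ratio scaling, 5 without Scgb1a1, 16 with all 48 mice and 5 without C3HM 1 and C3HM 3. Hyperoxia by sex became 1 with all 48 mice, and strain over all conditions went from 5 to 3 without the filter. The cause of each was not tested. The fits without C3HM 1 and C3HM 3 kept 1 mouse in the group of C3H saline males in room air. Of 400 single-gene values, 372 kept direction and call and 22 kept direction but not the call. The other 6, all of Foxj1 and past the threshold in no fit, turned sign: without C3HM 1 and C3HM 3, hyperoxia in C3H went from 0.26 to -0.05 and strain by sex at baseline from -0.42 to 0.20, and 4 values near 0 turned under other scalings or the value added.

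Median-ratio scaling moved the median of all genes for the difference between strains from 0.15 to 0.00 and for hyperoxia in C3H from 0.10 to -0.02, and the members' medians from 1.02 to 0.91 and from -0.05 to -0.11.

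With each mouse left out in turn, counts ranged from 0 to 8 for strain at baseline, 0 to 10 for sex, 0 to 1 for strain by sex, 16 to 22 for hyperoxia, 2 to 6 in C3H, 24 to 33 in C57B, 5 to 22 by strain, 0 to 12 by sex and 3 to 7 for strain over all conditions. In the ATG mice they ranged from 15 to 23 for hyperoxia, 3 to 5 in C3H, 19 to 27 in C57B and 2 to 10 by strain, over both injections from 25 to 31 by strain, and for strain within hyperoxia from 8 to 15. The comparisons of ATG with saline and the three-way comparison stayed at 0.

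Depth was unknown, and 4 members were too low to be tested in saline mice.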
